A study of Mus musculus with 4 samples.

Results

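Expression of 52 mouse genes of mitosis was followed in hepatocyte preparations from mice labelled as liver-specific knockouts of Pnpt1, the gene of the RNA-degrading enzyme PNPase, against preparations from control littermates. The list of 52 was drawn up by function: genes of the mitotic cyclins and kinases, the anaphase-promoting complex (APC/C) activators, the spindle checkpoint, the kinetochore, kinesins, spindle microtubules, cytokinesis and chromosome structure. It was chosen with earlier results of these data known, so its counts are a description and no independent test. A probe stood for a gene when its RefSeq accession carried the gene's symbol, and 47 of the 52 genes had at least 1 such probe, among 11495 named genes measured. Cenpf, Kif20b, Kifc1, Mki67 and Ncapg had no named probe and were not measured here.

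Mitotic genes are transcribed late in the cell cycle. Cyclins A and B switch on Cdk1, the Aurora and Polo kinases build the spindle, the kinetochore ties chromosomes to microtubules, and the checkpoint holds back Cdc20 until every chromosome is attached. Cdc20 then turns on the APC/C, which has cyclin B and securin destroyed, separase cuts the sister chromatids apart, and the central spindle and the anillin ring divide the cell. In the adult liver most hepatocytes are out of the cycle, and these transcripts are low until hepatocytes divide again after injury or loss of tissue.

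RNA came from 4 mice of the C57BL/6J background, each compared on 2-colour Agilent arrays. Both genotypes were labelled Pnpt1 fl/fl, so that the floxed alleles were shared, and only HepKO mice had Albumin-Cre, as Albumin-Cre/wt. Albumin-Cre acts in hepatocytes, and the other cells of the liver keep Pnpt1. One pair was labelled male and 12.29 weeks old, although the age differs among its own labels, and the other pair was labelled female and 4.29 weeks old. The mice of a pair were matched for litter, age and sex. Livers were perfused with collagenase and washed cell pellets were extracted, with no sort named in the labels. A slide held 1 pair, on 2 arrays of opposite dye, so age, labelled sex and slide change together from pair to pair and cannot be told apart. The 2 arrays of a pair share their RNA and count as 1 replicate, which gives n = 2 pairs. Values are log2 ratios of HepKO over WT, where 1 is a doubling. For each gene the array with HepKO in Cy5 is given before the array with HepKO in Cy3, and errors are limma's moderated standard errors over the pairs.

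Checks of the labels were made first. Pnpt1 itself was measured by 2 probes, whose mean ratios were -0.10 (adjusted p = 0.747) and -0.52 (adjusted p = 0.0800). Where these probes lie relative to the deleted stretch was not given in the sources used here, so they do not test the deletion. Ddx3y, Eif2s3y and Kdm5d, on the Y chromosome, were well above background only on the arrays of the pair labelled female, and Xist only on those of the pair labelled male. These 4 genes go against the labelled sex of both pairs and in both genotypes, and a probe of the Y-linked gene Zfy2 was above background in both pairs. The pairs are therefore named here as the pair labelled male and the pair labelled female. The 14 hepatocyte markers with a kept probe, Alb and Hnf4a among them, were above background on every array in both genotypes. Between 48.2% and 58.6% of probes were above background per array and genotype.

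Mitotic transcripts were higher in the HepKO preparations, with calls in every role on the list. Adjusted p was under 0.05 with a higher level in HepKO for 43 of the 47 measured genes, and for 0 with a lower level. Over all genes tested, 1378 of 11495, or 12.0%, were called higher and 427, or 3.71%, lower. A rise of at least 2-fold was called for 40 of the 47, against 9.03% of all genes. The median ratio of the 47 was 1.93, against 0.083 over all genes, and by pair it was 1.79 in the pair labelled male and 2.11 in the pair labelled female. On each of the 4 arrays every one of the 47 lay above 0, a pattern that 39.4% of all genes shared. Calls depended on the processing: with normexp fitted on flagged spots too, or with dim probes tested as well, limma called 0 members and 0 genes, and the smallest adjusted p was 0.0747 and 0.0689. At an unadjusted p under 0.05 these fits had 45 and 46 of the 47 members. Over all genes they had 3006 of 11495 and 4638 of 16339.

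In WT, 24 of the 47 were above background on all 4 arrays, and 23 of these were called higher, with ratios from 0.94 to 5.05. Another 10 were above background in WT on 1 to 3 arrays and 13 on none. In HepKO all 47 were above background on 4 of 4 arrays. The filter needs both arrays of a pair in 1 genotype, so those 13 and also Kif4, Kif18a, Kif23 and Ncaph, with WT above background on 1 or 2 arrays, were kept only through HepKO. These 17 had to differ and their number supports nothing, while 29 of the 30 kept through WT too were called higher. Over all genes 2.97% were above background on every HepKO array and 0 WT arrays. For the 13 a fold is given as a lower bound in respect of WT detection only. It sets the HepKO signal over the lowest signal called above background on the WT arrays. Where the gene's own WT signal was higher, that signal was used. No error was taken off, so the bound is no minimum over probes or settings. For Melk, Top2a, Kif2c, Ndc80 and Ttk it equals the fold of the mean ratio. The lowest ratio of Top2a over the settings was 1.38, against 1.93 here. Ratios of dim genes depended on the background model: on the scanner software's own log ratios the median of the 47 was 3.80, and Aurkb, Ttk and Kif15, which did not pass here, read 3.55, 3.73 and 3.29 and passed (adjusted p = 0.0101, 0.0108 and 0.0104). The order of the genes turned with it: Cdc20 led the 47 here, while Bub1 at 5.81 and Ccnb1 at 5.72 lay above its 5.45 on those ratios, and Spc24 at 1.10 took the lowest place from Kif15. Sizes are therefore given for each gene. Ranks, and the largest and smallest gene of a role, hold for this fit only and include genes whose WT signal was not above background. On the scanner software's ratios Ccnb1, Melk, Bub1, Ndc80 and Hmmr led their roles, where Ccna2, Birc5, Bub1b, Nuf2 and Nusap1 led here. In RNA from whole cell pellets, a larger share of dividing cells and more of each transcript per cell cannot be told apart.

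**Figure D1:**
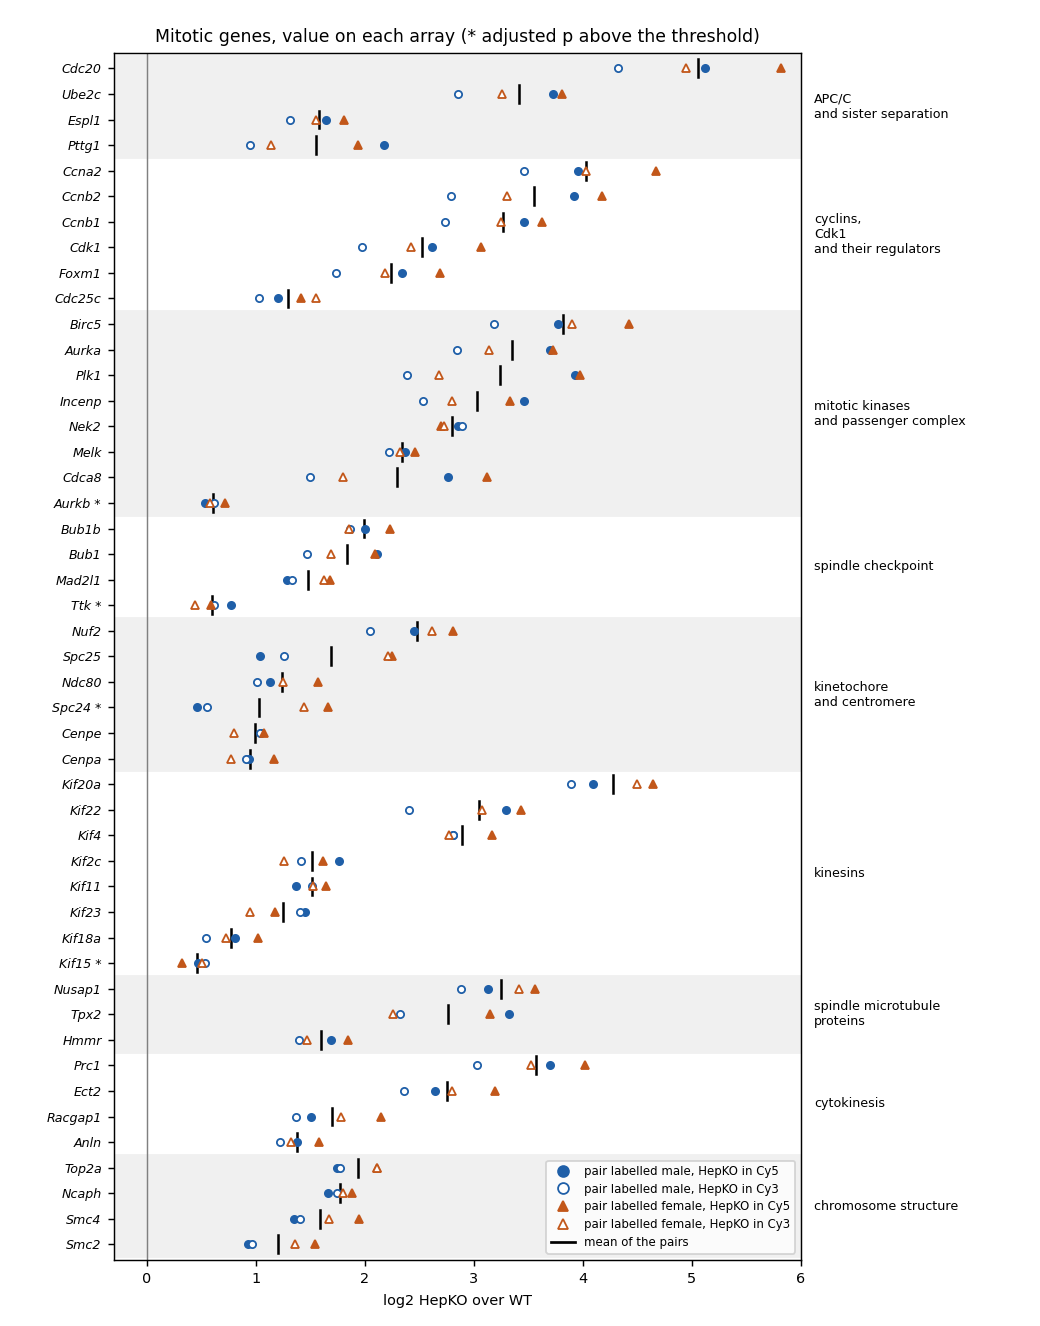
Log2 ratio of HepKO over WT (horizontal axis) for the 47 measured mitotic genes, by role, with 1 symbol per array and a bar at the mean of the pairs. All symbols lie above 0, from 0.32 for Kif15 to 5.82 for Cdc20, and the 4 genes with an asterisk did not pass the adjusted p of 0.05.

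All 4 genes of the start of sister separation were called higher. Cdc20, the APC/C activator that the checkpoint holds back, had normalized log2 signals of 12.76, 12.70, 12.97 and 12.83 in HepKO, in the pair labelled male and then the pair labelled female. Its WT signals on the same arrays were 7.64, 8.38, 7.15 and 7.88. Every HepKO signal was thus more than 4 log2 units above every WT signal. Its ratios were 5.12 and 4.32 in the pair labelled male and 5.82 and 4.95 in the pair labelled female, with a mean of 5.05 ± 0.22 (33.2-fold, adjusted p = 0.00993). Ube2c, the ubiquitin-conjugating enzyme that works with the APC/C, rose by a mean of 3.41. Espl1, the separase that cuts cohesin, rose at least 2.98-fold and was above background in WT on 0 arrays. Pttg1, the securin that inhibits separase, rose less than Cdc20 and Ube2c. The pair labelled male gave 2.18 and 0.95 for Pttg1 and the pair labelled female 1.94 and 1.14, with a mean of 1.55 ± 0.14 (adjusted p = 0.0152). Its arrays split by dye and not by pair, both values with HepKO in Cy5 lying above both with HepKO in Cy3.

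All 6 genes of the cyclin and Cdk1 group were called higher. Ccna2, cyclin A2, gave 3.95 and 3.46 in the pair labelled male and 4.67 and 4.03 in the pair labelled female, a mean of 4.03 ± 0.21 (16.3-fold, adjusted p = 0.0101). All 4 arrays put it above 3.4, and the pair labelled female was the higher for each dye. Ccnb2 and Ccnb1, the B cyclins that carry cells into mitosis, rose by 3.55 and 3.27, and their kinase Cdk1 by 2.52. Foxm1, a transcription factor of late cell-cycle genes, rose by 2.24. Cdc25c, the phosphatase that activates Cdk1, gave 1.20 and 1.03 in the pair labelled male and 1.41 and 1.55 in the pair labelled female. Its mean was 1.30 ± 0.17 (adjusted p = 0.0221), at least 2.43-fold, with WT above background on 0 arrays. Both female-labelled arrays were above both of the other pair.

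Among the mitotic kinases and the chromosomal passenger complex, 7 of 8 were called higher. Birc5, or survivin, a passenger subunit, gave 3.77 and 3.18 in the pair labelled male and 4.42 and 3.90 in the pair labelled female. The female-labelled pair was higher for each dye, and the mean was 3.82 ± 0.22 (14.1-fold, adjusted p = 0.0112). Aurka and Plk1, kinases of centrosomes and spindle assembly, rose by 3.35 and 3.24. The passenger scaffold Incenp rose by 3.03, the centrosomal kinase Nek2 by 2.79 and the passenger subunit Cdca8, or borealin, by 2.29. Melk, a kinase of dividing cells, rose at least 5.07-fold from a WT signal not well above background. Aurkb, the catalytic subunit of the passenger complex, did not pass: its ratios were 0.53 and 0.61 in the pair labelled male and 0.71 and 0.58 in the pair labelled female. The mean was 0.61 ± 0.14 (adjusted p = 0.0627), at least 1.45-fold. Its HepKO signal lay near the detection floor, a mean of 6.56 log2 units against 5.95 in WT.

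Of the 4 spindle checkpoint genes 3 were called higher. Bub1b, the BubR1 protein that binds Cdc20, gave 2.00 and 1.86 in the pair labelled male and 2.23 and 1.85 in the pair labelled female. The arrays overlapped between pairs, and the mean was 1.99 ± 0.14 (adjusted p = 0.0122). The kinase Bub1 rose at least 3.46-fold, and Mad2l1, the Mad2 inhibitor of Cdc20, rose by 1.48. Ttk, the Mps1 kinase that starts the checkpoint signal, had values of 0.77 and 0.61 in the pair labelled male and 0.59 and 0.44 in the pair labelled female. Its mean of 0.60 ± 0.15 did not pass (adjusted p = 0.0696), and the bound is at least 1.52-fold. As for Aurkb, the HepKO signal of Ttk was low, 6.66 log2 units against 6.06 in WT.

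Of the 6 kinetochore and centromere genes measured 5 were called higher, and their median was 1.13, or 3.17 on the scanner software's ratios. Nuf2, a subunit of the Ndc80 complex that grips microtubules, gave 2.45 and 2.04 in the pair labelled male and 2.81 and 2.62 in the pair labelled female. Both arrays of the female-labelled pair were above both of the other, with a mean of 2.48 ± 0.18 (adjusted p = 0.0123). Ndc80 itself rose at least 2.36-fold, and Cenpe, a kinesin of the kinetochore, at least 1.96-fold. Cenpa, the histone H3 variant of centromeres, gave 0.94 and 0.91, then 1.17 and 0.77, with a mean of 0.94 ± 0.14 (adjusted p = 0.0281). Its arrays overlapped between the pairs.

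The other subunits of the Ndc80 complex, Spc24 and Spc25, differed most between the pairs. Spc24 had ratios of 0.46 and 0.55 in the pair labelled male and 1.66 and 1.44 in the pair labelled female, and its mean of 1.03 ± 0.29 did not pass (adjusted p = 0.0900). In HepKO its signals were 9.48, 9.50, 9.14 and 9.18 log2 units, while in WT they were 9.02, 8.95, 7.48 and 7.74. The gap between pairs thus lay in WT, where the pair labelled male had the higher Spc24 signal, and in HepKO that pair was also slightly the higher. Spc25 gave 1.03 and 1.26 in the pair labelled male and 2.25 and 2.21 in the pair labelled female, with a mean of 1.69 ± 0.30 (adjusted p = 0.0384). Its WT signals were 8.53, 8.48, 8.06 and 8.18, and its HepKO signals were 9.57, 9.74, 10.31 and 10.39, so both genotypes contributed to the gap. Adjusted p for Spc25 was 0.0631 without replicate 2 of the male pair, 0.0537 on the scanner software's own log ratios and 0.0554 on the authors' value table.

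Of the 8 kinesins measured 7 were called higher. Kif20a, the motor that carries the passenger complex to the central spindle, gave 4.09 and 3.89 in the pair labelled male and 4.64 and 4.50 in the pair labelled female. Its mean was 4.28 ± 0.20 (19.4-fold, adjusted p = 0.00993), and both female-labelled arrays were above both male-labelled ones. The chromosome-arm kinesins Kif22 and Kif4 rose by 3.05 and 2.89, and Kif11, the motor that pushes spindle poles apart, by 1.51. Kif2c, a microtubule depolymerase, rose at least 2.85-fold, and Kif23, of the central spindle, by 1.24, with WT above background on 1 array. Kif18a, which dampens chromosome movement, rose by 0.77 (adjusted p = 0.0440), also with WT above background on 1 array, a call that 6 of the alternatives took away. On the scanner software's ratios Kif23 read 3.66 and Kif18a 2.81. Adjusted p for Kif18a was 0.0519, 0.0562 and 0.0611 without replicate 1 or 2 of the male pair or replicate 1 of the female pair. Kif15, another spindle-pole motor, gave 0.47 and 0.53 in the pair labelled male and 0.32 and 0.51 in the pair labelled female. The mean of 0.46 ± 0.14 did not pass (adjusted p = 0.106), with a bound of at least 1.35-fold and 0 WT arrays above background.

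The 3 spindle microtubule proteins were called higher. Nusap1, which bundles spindle microtubules, gave 3.13 and 2.88 in the pair labelled male and 3.56 and 3.42 in the pair labelled female. Its mean was 3.25 ± 0.18 (9.51-fold, adjusted p = 0.0112), and the female-labelled arrays were both the higher. Tpx2, the activator of Aurora A, rose by 2.76. Hmmr, a spindle-pole protein, gave 1.69 and 1.39, then 1.85 and 1.47, which overlapped between pairs. Its mean was 1.60 ± 0.14 (adjusted p = 0.0152), at least 2.98-fold.

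All 4 cytokinesis genes were called higher. Prc1, which bundles the central spindle, gave 3.70 and 3.03 in the pair labelled male and 4.02 and 3.52 in the pair labelled female, a mean of 3.57 ± 0.17 (11.9-fold, adjusted p = 0.00993). All 4 arrays put Prc1 above 3, and the female-labelled pair was the higher for each dye. Ect2, the exchange factor that activates RhoA at the cell equator, rose by 2.75, and its partner Racgap1 by 1.70. Anln, the anillin scaffold of the contractile ring, gave 1.38 and 1.22, then 1.58 and 1.32. Its arrays overlapped between the pairs, and its mean was 1.38 ± 0.15 (adjusted p = 0.0168), at least 2.56-fold.

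Chromosome structure genes were called higher in 4 of 4 measured. Top2a, the topoisomerase that untangles sister chromatids, gave 1.74 and 1.77 in the pair labelled male and 2.11 and 2.11 in the pair labelled female. The pairs did not overlap, and the mean was 1.93 ± 0.17 (adjusted p = 0.0150), at least 3.82-fold. The condensin subunits Ncaph and Smc4 rose by 1.77 and 1.59. Smc2, the core subunit shared by both condensins, gave 0.93 and 0.97 in the pair labelled male and 1.54 and 1.36 in the pair labelled female. Its mean was 1.20 ± 0.19 (adjusted p = 0.0301), again with both female-labelled arrays above the others.

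**Figure D2:**
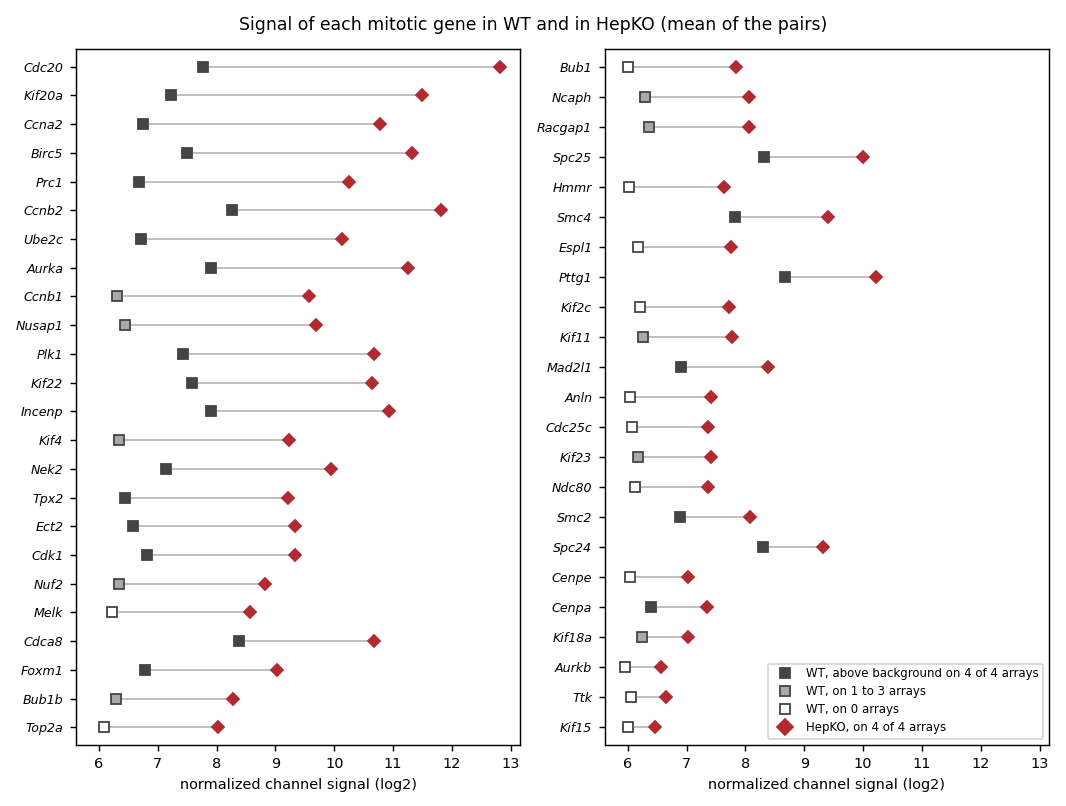
Normalized channel signal (log2, mean of the pairs) of each measured mitotic gene in WT (squares, shaded by the number of WT arrays above background) and in HepKO (diamonds). Cdc20 ran from 7.76 in WT to 12.8 in HepKO. Aurkb, Ttk, Kif15 and Cenpe stayed within 1 log2 unit of their WT signal, which was above background on 0 arrays. Kif18a and Cenpa, with WT above background on at least 1 array, stayed as close, and Cenpe, Kif18a and Cenpa were called higher.

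Across the 47 genes the pairs gave nearly the same order. Pearson's r between the pairs was 0.968 and Spearman's rho 0.952 over the 47 genes, a description across genes that share arrays, against 0.839 and 0.797 over all 11495. In size, 39 of the 47 (83%) had the larger ratio in the pair labelled female, against 52.3% of all genes. The largest gap was that of Spc25, 1.08, followed by Spc24 at 1.04 and Birc5 at 0.68, and Kif23 had the largest gap the other way, -0.37. Each difference between pairs rests on 1 pair per label and was not tested. Dye also moved the values: 35 of 47 genes in the pair labelled male and 44 of 47 in the pair labelled female were larger with HepKO in Cy5, against 5731 and 6434 of all 11495 genes, with median gaps of 0.25 and 0.36 over the 47. Plk1 had the widest, 3.93 against 2.39 in the pair labelled male. In that pair its HepKO signals were 10.60 and 10.75 log2 units and its WT signals 6.67 and 8.36, so the gap lay in WT. The mean of both orientations, used throughout, cancels a gap only where the dye shifts both genotypes alike. Whether it does so for these genes was not tested.

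**Figure D3:**
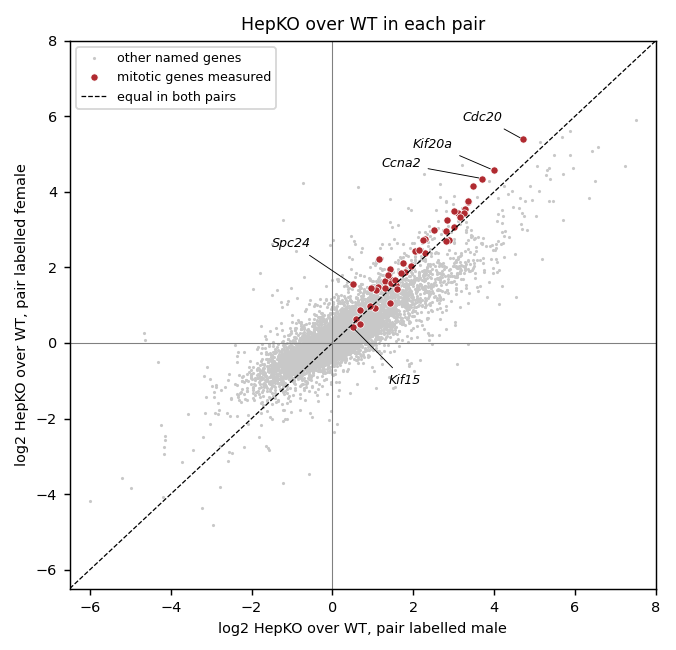
Log2 ratio of HepKO over WT in the pair labelled male (horizontal) and the pair labelled female (vertical), with 1 point per gene, the measured mitotic genes in red and a dashed line where the pairs are equal. Of the 47 mitotic genes 39 lie above the line, Spc24 and Spc25 by more than 1 log2 unit.

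Ranked by ratio in this fit among all 11495 genes, Cdc20 was the 14th, Kif20a the 26th and Ccna2 the 38th. The top 100 held 11 of the mitotic genes, the top 500 held 26 and the top 1000 held 40. More than 1 probe was named for 14 members, and in none of these did the mean ratios of the probes differ in sign. All 62 kept probes of the 47 genes were above 0 on every array. Some of these were kept only through HepKO and had to differ, so their number above 0 supports nothing. When the 22807 kept probes with a value in both pairs were tested, 52 of the 62 were called higher. Over all 22807 probes, 1672 were called higher and 682 lower. Probes of 1 gene did differ in size. The brightest probe of Kif11 gave 1.51 and its other probe 0.16, with 0 WT arrays above background for the latter. Second kept probes of Anln, Cdc25c and Cenpe gave 0.52, 0.49 and 0.49. In the limma fit over all kept probes these did not pass (adjusted p = 0.0819, 0.0892 and 0.0874). The second probe of Top2a gave 0.83 and passed (adjusted p = 0.0423). Calls and lower bounds given above are those of the brightest probe of each gene. The probes of Ccnb1 gave 3.27, 2.22 and 2.05, and those of Smc2 1.20, 1.22, 0.99 and 0.35. A second Cdk1 probe, too dim to be kept, gave 0.17 against 2.52 for the kept one.

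Other genes of the same machinery rose in part. These 6 further lists share no gene with the 52, and the background share called higher is again 12.0%. Like the 52, they were chosen with earlier results of these data known. Of 32 other kinetochore and centromere genes, 16 were called higher and 0 lower, with a median of 0.80. Sgo1, the shugoshin that guards centromeric cohesin, rose by 2.61 and Zwilch, of the checkpoint complex RZZ, by 2.17, while Cenpb, which binds the centromere repeat, had the lowest ratio, -0.75 (adjusted p = 0.0582). Of 37 other spindle, centrosome and cytokinesis genes, 15 were called higher and 0 lower, with a median of 0.58. Stmn1, which destabilises microtubules, rose by 3.34 and Shcbp1, of the midbody, by 2.65, and the transport kinesin Kif1b was lowest at -0.67 (adjusted p = 0.0561).

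Few genes of the APC/C itself were called beside its activator. Of 16 core subunits and inhibitors 2 were called higher and 0 lower, and the median of 0.13 was near that of all genes. The 2 were Ube2s, the enzyme that extends ubiquitin chains on APC/C targets, at 1.43, and Fbxo5, the inhibitor Emi1, at 1.19. The core subunit Anapc11 had the lowest ratio, -0.78, which did not pass (adjusted p = 0.0575). Among 21 other regulators of mitotic entry 9 were called higher, led by the kinases Pbk at 2.70 and Pkmyt1 at 1.58, and Rbl2, a retinoblastoma-like repressor of quiescent cells, was lowest at -0.88 (adjusted p = 0.0565). The 14 other condensin and cohesin genes had 4 higher calls and a median of 0.19, with Cdca5, or sororin, at 3.02, Ncapd2 at 2.33 and Stag1 at -0.58 (adjusted p = 0.110).

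DNA replication genes had 21 higher calls of 35 and a median of 0.95. Mcm6 and Mcm5, subunits of the replicative helicase, rose by 3.45 and 2.46. Mcm10, a factor that works with that helicase, was the only gene of the 6 lists called lower. Its arrays read -0.72 and -1.66 in the pair labelled male and -1.85 and -1.70 in the pair labelled female, with a mean of -1.48 ± 0.20 (adjusted p = 0.0243). All 4 of its arrays lay below 0, opposite to the other called genes of its list.

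**Figure D4:**
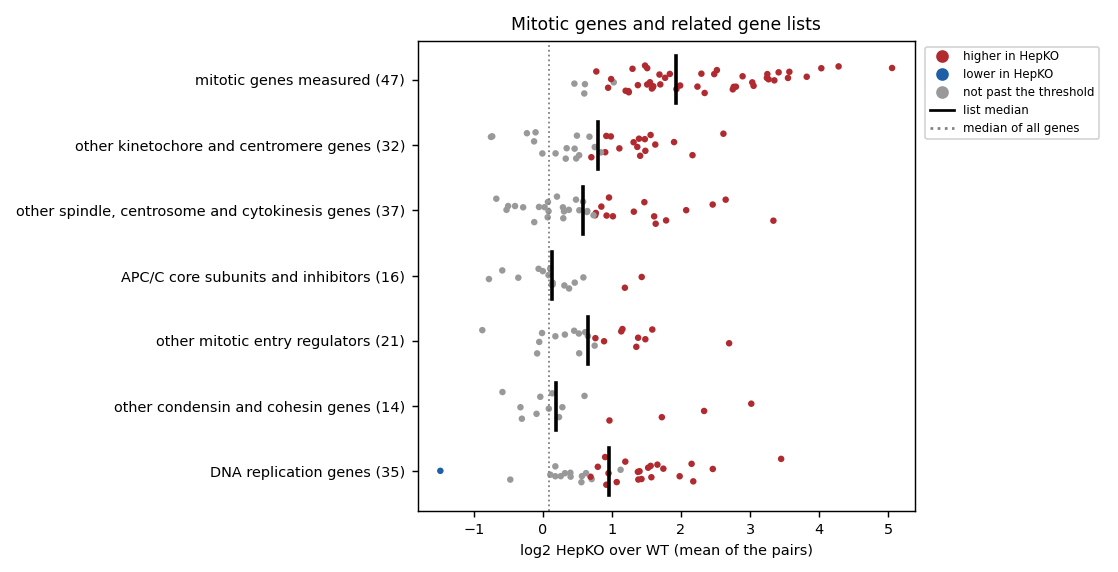
Mean log2 ratio of HepKO over WT (horizontal axis) for each measured gene of the mitotic list and of 6 related lists, with 1 point per gene coloured by call, a bar at each list median and a dotted line at the median of all genes, 0.083. Medians run from 0.13 for the APC/C core to 1.93 for the mitotic list, and Mcm10 at -1.48 is the only lower call.

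Markers of other liver cells moved in the same comparison. Summed signals of the macrophage list were 98050 to 103941 in HepKO and 11018 to 27020 in WT, with 13 of 17 markers called higher, led by Marco at 4.26 and Fcgr1 at 3.28. Of 18 lymphocyte markers 9 were called higher, with Gzmb at 2.83 and Ptprc at 2.77, and summed signals of 3915 to 5917 against 1309 to 1721. Among its B-cell markers, Cd79b was above background on every array and rose by 0.92 (adjusted p = 0.0303), Ms4a1 was above background on 0 WT arrays, and Cd79a had no kept probe. Neutrophil markers had 3 higher calls of 10, with S100a9 at 3.21, Mpo at 1.77 (adjusted p = 0.0857), and sums of 2405 to 5049 against 806 to 1061.

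Endothelial markers were called higher in 9 of 14, with Cd34 at 2.61 and Lyve1 at 2.07, and stellate cell and fibroblast markers in 7 of 14, with Col3a1 at 2.14 and Col1a2 at 1.62. Their sums were 15789 to 17164 against 7133 to 10471, and 18808 to 21683 against 10184 to 11199. Cholangiocyte and progenitor markers had 2 higher calls of 8, Spp1 at 3.96 and Bicc1 at 3.39, with sums of 4578 to 7995 against 1089 to 1278, and Krt7 and Cftr had no kept probe. Of the 13 erythroid markers with a named probe 6 were measured. The erythroid markers Gata1, Rhag and Hemgn had no kept probe, Alas2 fell by 0.90 (adjusted p = 0.0309) Klf1 had a ratio of -1.02 (adjusted p = 0.0565) and Hba-a1 rose by 3.27. The ranges of the erythroid sums over the 4 arrays overlapped, at 2883 to 10869 in HepKO and 2106 to 8762 in WT. Such ranges pool both pairs and leave out the pairing, so the overlap does not show that the genotypes were alike.

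Hepatocyte markers had 0 higher and 2 lower calls of 14, with a median of 0.089. Cyp2e1, a cytochrome of the pericentral liver, fell by 2.38, and Apoa2, an apolipoprotein, by 1.42. The ranges of the hepatocyte sums, pooled over the pairs in the same way, overlapped too, at 1071590 to 1571460 in HepKO and 1160260 to 1591500 in WT. The mitotic genes themselves summed to 40885 to 47635 in HepKO and 5087 to 8045 in WT. Which cells carried the mitotic transcripts, and the part of the macrophage, lymphocyte, neutrophil, endothelial, stellate and cholangiocyte lists in that rise, was not tested.

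The mitotic genes share promoter letters that the choice of genes did not use. Late cell-cycle promoters are known for the cell-cycle genes homology region (CHR), a site of the DREAM and MuvB complexes, and for CCAAT boxes bound by NF-Y, while E2F sites mark genes of DNA replication. RefSeq promoters of build GRCm38.p6, from 250 bases before to 50 after the start, were read for 43 of the 52 genes, 45 promoters in all. The CHR was searched as TTTGAA or TTCGAA, the CCAAT box as CCAAT and an E2F-like site as GCGGGAA or GCGCGAA, each on both strands, and none of these letters is contained in another. The stretches below are the 100 bases before the start, with CHR and CCAAT letters in capitals, for the largest ratio of this fit (Cdc20), its APC/C partner (Ube2c), the central kinase and its cyclin (Cdk1, Ccnb1), a strongly higher gene with no match there (Birc5) and the smallest (Kif15).
Cdc20 (chr4:118437344-118437443, minus strand): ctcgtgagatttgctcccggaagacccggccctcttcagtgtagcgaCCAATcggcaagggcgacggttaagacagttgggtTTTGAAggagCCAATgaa
Ube2c (chr2:164769829-164769928, plus strand): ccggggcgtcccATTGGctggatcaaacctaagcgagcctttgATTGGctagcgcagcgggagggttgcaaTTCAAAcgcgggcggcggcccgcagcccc
Cdk1 (chr10:69352913-69353012, minus strand): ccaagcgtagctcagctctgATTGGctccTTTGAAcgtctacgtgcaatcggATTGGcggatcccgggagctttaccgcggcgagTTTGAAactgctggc
Ccnb1 (chr13:100786487-100786586, minus strand): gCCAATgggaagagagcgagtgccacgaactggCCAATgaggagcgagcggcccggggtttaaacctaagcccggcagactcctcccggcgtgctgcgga
Birc5 (chr11:117849137-117849236, plus strand): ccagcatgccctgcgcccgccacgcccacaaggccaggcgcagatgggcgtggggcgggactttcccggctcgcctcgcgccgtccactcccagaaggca
Kif15 (chr9:122950981-122951080, plus strand): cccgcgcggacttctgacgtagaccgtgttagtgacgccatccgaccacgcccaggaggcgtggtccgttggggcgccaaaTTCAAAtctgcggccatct

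Counted from the start, with the base before it as -1, Cdc20 held a CHR at -18 to -13 and CCAAT boxes at -53 to -49 and -8 to -4. Ube2c held both kinds on the opposite strand, read as TTCAAA and ATTGG. Cdk1 held 2 CHR matches in the stretch. Of the letters searched, the stretch of Ccnb1 held only CCAAT boxes. Other spellings of the CHR were not searched, so a promoter with no match may still hold one. Kif15, whose ratio did not pass, held a CHR at -19 to -14, and Birc5, with a ratio of 3.82, held no match there. A match is a description of letters and not of binding.

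Over the list, 34 of 45 promoters (75.6%) held a CHR, against 19.2% of the 32851 promoters of the table. From 100 bases before to 50 after the start the shares were 73.3% and 8.59%. A CCAAT box stood in 71.1% against 37.4%, and both kinds together in 64.4% against 7.52%. E2F-like letters stood in 6.67% against 6.00%. DNA replication promoters had the other pattern, with a CHR in 16.2% and E2F-like letters in 62.2%. Other kinetochore genes lay between, at 42.5% and 32.5%. Among the measured members, 27 genes with a CHR had a median of 1.84 (0.46 to 5.05) and 11 without had a median of 2.34 (0.77 to 3.82), ranges that overlap.

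**Figure D5:**
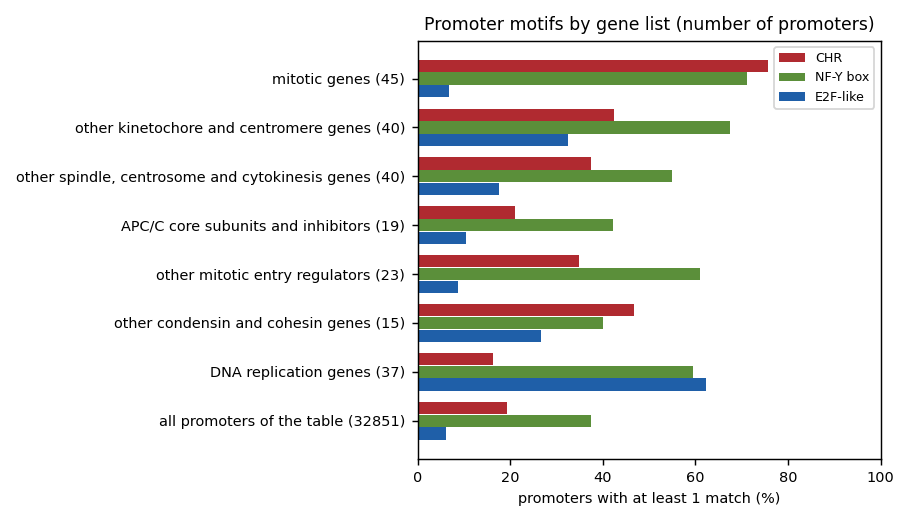
Share of promoters (percent, horizontal axis, from 0) with at least 1 match to the CHR, the CCAAT box (labelled NF-Y box) or the E2F-like letters, for the mitotic genes, 6 related lists and every promoter of the table, with the number of promoters in brackets. The CHR bar is longest for the mitotic genes, 75.6%, and the E2F-like bar for DNA replication genes, 62.2%.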

How the data were processed

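Arrays were read by the scanner software Agilent Feature Extraction 10.2.1.3, per the file headers. The deposited intensity values used here are the mean of each spot and the median of its local background in both channels. That software had also subtracted background and balanced the dyes for the deposited log10 ratio. The value table of the authors holds these log10 ratios, turned to HepKO over WT in every column, with a median of 0. Both served as alternatives. Further steps were not given in the sources used here.

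Outlier-flagged spots (178 to 260 per array) were left out, and normexp (offset 50) and loess followed in limma 3.58.1 under R 4.3.3, with the 1639 control spots at weight 0. Log2 ratios were averaged over the dyes of a pair, so that the log2 values derive from the deposited intensities. A probe was kept if well above background on both arrays of a pair in either genotype (22839 of 41174). Probes were named by unversioned RefSeq accession (22951 of 41174), and a gene was read from its brightest kept probe. Tests were limma's moderated fit of the mean over 2 pairs, with 1 residual and 3.12 prior degrees of freedom, and Benjamini-Hochberg adjustment over 11495 genes. A threshold of 0.05 was used. So few arrays limit the precision. The errors and p-values join a gene's spread between 2 pairs with a variance pooled over all genes. With 3.12 prior against 1 residual degrees of freedom, the pooled variance has the larger weight.

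The 52 genes and the other lists were chosen with earlier results of these data known. Values on every array are given, per role, for the largest and smallest ratio of this fit and each gene that did not pass. For each related list the 2 largest and the smallest ratio are named, with each lower call, and for each marker list the 2 largest by absolute ratio. Spc24, Spc25, probe examples and printed promoters apart from these were singled out after their values were seen. The fit was tested on simulated data with known changes, drawn with the variance that the fit itself gave. Those data had no filter, dye effect or dim signals, so that run says nothing on these parts. Alternatives were another background fit or offset, other filters, probe averaging, median centring, single dyes, single arrays left out, a random block, and the deposited ratios. A planned search for degradation motifs in the proteins was not run, and no protein sequences were used here.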

Additional observations from a re-analysis of the deposited data

How the results depend on the processing

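No mitotic gene changed direction or was called lower under any alternative run. With normexp fitted on all spots, where the local background of female pair replicate 2 reached 41156 against a median of 29, 0 members, 0 genes and 0 genes of the related lists were called by limma, and the member median was 1.47. At an unadjusted p under 0.05 that fit had 45 members and 3006 genes. With no filter on dim probes the counts were 0 members, 0 genes and 0 of the related lists, with 46 members and 4638 genes at an unadjusted p under 0.05. The member median was 3.80 on the Feature Extraction ratios, 3.81 on the authors' value table and 2.70 with an offset of 16. Only probes above background on all arrays in both channels left 24 members, 23 called, with a median of 2.78 and 41 called genes in the related lists, against 67. With the pair as a random block over 4 arrays (consensus correlation 0.474), 4079 genes were called, against 1805, and all 47 members. Leaving out each array in turn gave 41 to 43 members and 1125 to 2144 genes, the lowest without male pair replicate 2. Aurkb, Ttk and Kif15 passed with an offset of 16, on both deposited ratios and under the random block, and Spc24 under the random block alone. Leaving out background population outliers too, chosen after seeing the data, kept 43 members, 39 called. The filter settings changed which genes were tested and no member's ratio, and the cause of the other shifts was not tested. The test is already paired, since each ratio is HepKO over WT within a pair, and replicate numbers mark the dye orientation, so no further replicate block was fitted. Signals near background limit the ratios of the 13 genes not above it in WT.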

Other observations

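Promoter letters and calls were also counted outside the mitotic list, as a description with no test. Of 43 measured genes of the 6 related lists with a CHR on a promoter, 25 (58.1%) were called higher, against 30 of 89 (33.7%) without one. Among genes on none of these lists, 82 of 595 (13.8%) with both a CHR and a CCAAT box were called higher, against 897 of 8490 (10.6%) without both. In those genes a CCAAT box with no CHR went with 9.50% called higher, a CHR with no CCAAT box with 10.8%, and neither with 11.2%.

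HepKO livers weighed 1.19 g against 1.62 g for the WT mouse of the pair labelled male and 0.89 g against 0.97 g in the pair labelled female, per the labels. Body weights were 17.37 g against 22.7 g and 16.81 g against 18.49 g. With 1 mouse per genotype and pair these weights have no replicate within a pair.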
